A study of Mus musculus with 4 samples.

Results

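The proteasome is the multi-subunit protease that degrades ubiquitin-tagged proteins, and its genes are read here in the mouse gastric corpus, the acid-secreting region of the stomach. Members were the probe sets annotated to exactly 1 gene whose symbol starts with Psma, Psmb, Psmc, Psmd, Psme, Psmf or Psmg followed by a digit, with the brightest probe set kept for each gene. This gave 49 of the 22180 genes measured. They comprised 13 core subunits, 17 subunits of the regulatory particle, 5 immunoproteasome genes (Psmb8, Psmb9, Psmb10, Psme1 and Psme2), 7 assembly chaperones and 7 others. Among those 7 were Psmc3ip and Psme3ip1, which carry a matching symbol but are not proteasome subunits. Psma4, the remaining ring subunit, was represented only by probe sets that name 2 genes and is not a member.

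The study set metformin, a biguanide drug known to activate the AMP-activated kinase AMPK, against saline vehicle in 2 genotypes, with 1 Affymetrix array for each of 4 groups. The KO groups were Atp4b-cre; Prkaa1fl/fl; Prkaa2fl/fl mice, in which Cre is driven by the promoter of a parietal cell gene and both AMPK catalytic subunits are floxed, on a mixed B6/FVB and B6 background. One KO group received metformin at 300.0 mg/kg and the other saline. The WT groups were C57BL/6 mice given the same dose of metformin or saline. All groups shared daily intraperitoneal injection for 14 days and were adults of 8 to 10 weeks. The labels leave the number of animals behind each array unstated, and genotype and strain background cannot be told apart. With 1 array a group, differences between 2 arrays have no replicates behind them and are given as sizes with no p-value, and 4 arrays limit the precision of every value. The comparisons also share arrays: the WT vehicle array enters both the WT metformin response and the genotype difference under vehicle, and the KO vehicle array enters both the KO response and that genotype difference.

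The core particle is a barrel whose outer alpha rings gate entry and whose inner beta rings hold the catalytic sites of Psmb5 (chymotrypsin-like), Psmb6 (caspase-like) and Psmb7 (trypsin-like). In immune cells and in cells exposed to interferon gamma these are exchanged for Psmb8, Psmb9 and Psmb10, which favour peptides suited to MHC class I, and the Psme1-Psme2 ring opens the barrel without need of ubiquitin. The regulatory particle, with its ring of Psmc ATPases and its Psmd subunits, recognises, unfolds and feeds ubiquitinated substrates. Because the arrays read whole corpus tissue, fewer cells of a type and less RNA per cell cannot be told apart.

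Promoter sequences are shown for Psmb8 and Psmb9, for their constitutive counterparts Psmb5 and Psmb6, and for Psme1, since the results turn on how these genes compare. They run from 250 bases before to 50 bases after the gene start, 5′ to 3′ on the gene's strand, from RefSeq on GRCm38.p6. Capitals mark matches, on either strand, to AANNGAAA (the core bound by interferon-regulatory factors), TTCNNNGAA (a STAT site) and TGACNNNGC (the core of the antioxidant response element). Psmb8 and Psmb9 lie at chr17:34197945-34198244 on the + strand and chr17:34187281-34187580 on the - strand. Psmb5 lies at chr14:54617946-54618245 on the - strand, Psmb6 at chr11:70525107-70525406 on the + strand, and Psme1 at chr14:55578244-55578543 on the + strand.
Psmb8: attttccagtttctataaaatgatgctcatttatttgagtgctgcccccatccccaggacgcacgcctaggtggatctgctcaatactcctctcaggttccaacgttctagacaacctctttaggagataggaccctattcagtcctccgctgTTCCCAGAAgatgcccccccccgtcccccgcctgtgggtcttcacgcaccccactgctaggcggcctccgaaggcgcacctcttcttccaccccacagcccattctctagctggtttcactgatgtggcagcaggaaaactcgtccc
Psmb5: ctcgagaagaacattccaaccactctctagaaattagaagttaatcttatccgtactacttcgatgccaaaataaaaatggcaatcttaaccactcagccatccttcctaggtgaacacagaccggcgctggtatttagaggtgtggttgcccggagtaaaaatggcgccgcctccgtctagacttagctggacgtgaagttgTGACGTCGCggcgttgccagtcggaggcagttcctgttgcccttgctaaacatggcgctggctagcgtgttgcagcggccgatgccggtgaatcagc
Psmb9: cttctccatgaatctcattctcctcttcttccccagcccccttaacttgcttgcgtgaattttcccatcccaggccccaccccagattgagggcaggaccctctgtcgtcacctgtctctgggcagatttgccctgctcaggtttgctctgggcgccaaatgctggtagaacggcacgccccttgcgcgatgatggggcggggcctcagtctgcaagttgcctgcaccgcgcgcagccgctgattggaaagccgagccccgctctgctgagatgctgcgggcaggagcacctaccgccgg
Psmb6: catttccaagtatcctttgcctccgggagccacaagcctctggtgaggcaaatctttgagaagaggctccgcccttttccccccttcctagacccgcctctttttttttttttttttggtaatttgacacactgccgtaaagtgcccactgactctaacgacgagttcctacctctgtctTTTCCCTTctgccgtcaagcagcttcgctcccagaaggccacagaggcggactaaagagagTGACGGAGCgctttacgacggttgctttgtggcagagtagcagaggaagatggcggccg
Psme1: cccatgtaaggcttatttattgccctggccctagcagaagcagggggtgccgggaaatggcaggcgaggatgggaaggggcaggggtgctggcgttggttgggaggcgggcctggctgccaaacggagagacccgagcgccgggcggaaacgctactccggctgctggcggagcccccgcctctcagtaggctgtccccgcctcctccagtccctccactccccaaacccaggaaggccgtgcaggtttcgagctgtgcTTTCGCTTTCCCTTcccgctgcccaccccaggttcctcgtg

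Psmb8 held 1 STAT match, TTCCCAGAA, at position -97 from the gene start, while the Psmb9 window held none of the 3 motifs. Psme1 held 2 overlapping matches to the interferon-regulatory factor core on the opposite strand, at positions 10 and 16. In the constitutive pair, Psmb5 held the antioxidant core as TGACGTCGC and Psmb6 held it as TGACGGAGC, the second beside 1 interferon-regulatory factor core. The windows of Psmb10 and Psme2, not printed, held none. Of all 32851 promoters of this length, 23.9% held AANNGAAA, 8.3% held TTCNNNGAA and 12.4% held TGACNNNGC. Among the 41 members with a promoter sequence, counted by gene with a match in any of its windows, the shares were 31.7%, 7.32% and 14.6%. The first shares count promoters and the second count genes, which can have several promoters, so the units differ. The 2 core members with the antioxidant motif were Psmb5 and Psmb6, whose genotype differences under vehicle were 1.10 and 0.25 on the log2 scale. A match describes letters in the window only.

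The targeted genes were read first. Prkaa1, the AMPK alpha1 subunit, had log2 expression 8.66 in KO metformin and 8.18 in KO vehicle, against 8.90 in WT metformin and 9.46 in WT vehicle. Prkaa2, the alpha2 subunit, had 7.52 in KO metformin and 7.19 in KO vehicle, against 8.02 in WT metformin and 8.90 in WT vehicle. Both were lower on each KO array than on either WT array. Both were also highest in WT vehicle and lowest in KO vehicle, an order held by 28.8% of all genes past the filter given below. Under metformin, KO minus WT was -0.24 for Prkaa1 and -0.50 for Prkaa2. The position of their probes relative to the deleted exons is unknown here, so this check of the labels is partial. The tissue label was met by the corpus epithelium markers, of which 21 of 21 passed the filter described next. Squamous forestomach markers had a summed linear intensity of 282.6 in KO metformin, against 76.3 in KO vehicle, 62.0 in WT metformin and 52.0 in WT vehicle, a gap carried by Krt4 and Krt13. The other 2 measured markers, Krt14 and Trp63, were under the filter value on every array.

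Expression values are log2 intensities after robust multi-array averaging. A gene passed the filter on low values when its mean over the 4 arrays reached 5.03, the median of all gene means, and 45 of the 49 members did so, against 11090 genes in all. The members under it were the alpha subunit Psma5, the chaperone Psmg4, Psma8 (an alpha subunit of testis) and Psmb11 (the catalytic beta subunit of the thymic cortex). Psma8 had 3.38, 3.95, 3.16 and 3.34 and Psmb11 had 2.80, 3.49, 2.85 and 3.33 in KO metformin, KO vehicle, WT metformin and WT vehicle. Differences between such dim values are not read as folds.

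The immunoproteasome genes shared 1 array order: all 5 were highest on the KO vehicle array and lowest on the WT vehicle array. Among all genes past the filter 10.5% had that order, as did 17 of the 49 members (34.7%), while the opposite order, KO vehicle lowest and WT vehicle highest, was held by 28.8% of all genes and by 5 members (10.2%). These 2 arrays were also the least alike, with a Pearson correlation over the genes past the filter of 0.905, against 0.950 to 0.971 for the other pairs. After each array was centred on its median, 4 of the 5 kept it, against 6.88% of all genes. Psmb8, the inducible chymotrypsin-like subunit, had log2 expression 5.85 in KO metformin, 6.65 in KO vehicle, 6.18 in WT metformin and 5.53 in WT vehicle. Its difference between KO and WT under vehicle was 1.13. Psmb9, which takes the place of Psmb6, had 5.10 in KO metformin, 5.63 in KO vehicle, 5.18 in WT metformin and 4.55 in WT vehicle, a genotype difference of 1.09. The WT vehicle value lies under the filter value, so this difference is not an exact fold. Psmb10, which takes the place of Psmb7, had 6.33 in KO metformin, 6.38 in KO vehicle, 6.33 in WT metformin and 5.87 in WT vehicle. For Psmb10 the first 3 arrays lay close together and the WT vehicle array stood below them, and the genotype difference under vehicle was 0.50.

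Both subunits of the activator ring shared the order, with Psme2 the member furthest above WT under vehicle. Psme1 had 8.45 in KO metformin, 8.79 in KO vehicle, 8.45 in WT metformin and 8.18 in WT vehicle, a difference of 0.60 under vehicle. Psme2 had 6.55 in KO metformin, 7.01 in KO vehicle, 6.02 in WT metformin and 5.75 in WT vehicle, a difference of 1.26 under vehicle. On the kept probe sets, Psme2 was the only one of the 5 in which both KO arrays lay above both WT arrays, and its genotype difference under metformin was 0.53. A further probe set that names Psme2 with 2 other genes did not show this, with 5.71 in KO metformin, 5.56 in KO vehicle, 6.08 in WT metformin and 5.48 in WT vehicle, and cannot be assigned to 1 gene. The share of all genes with both KO arrays above both WT arrays is not given here, so this order in Psme2 is not read as exceeding it. Over the 5 genes the median genotype difference under vehicle was 1.09, against -0.22 over all genes past the filter.

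**Figure D1:**
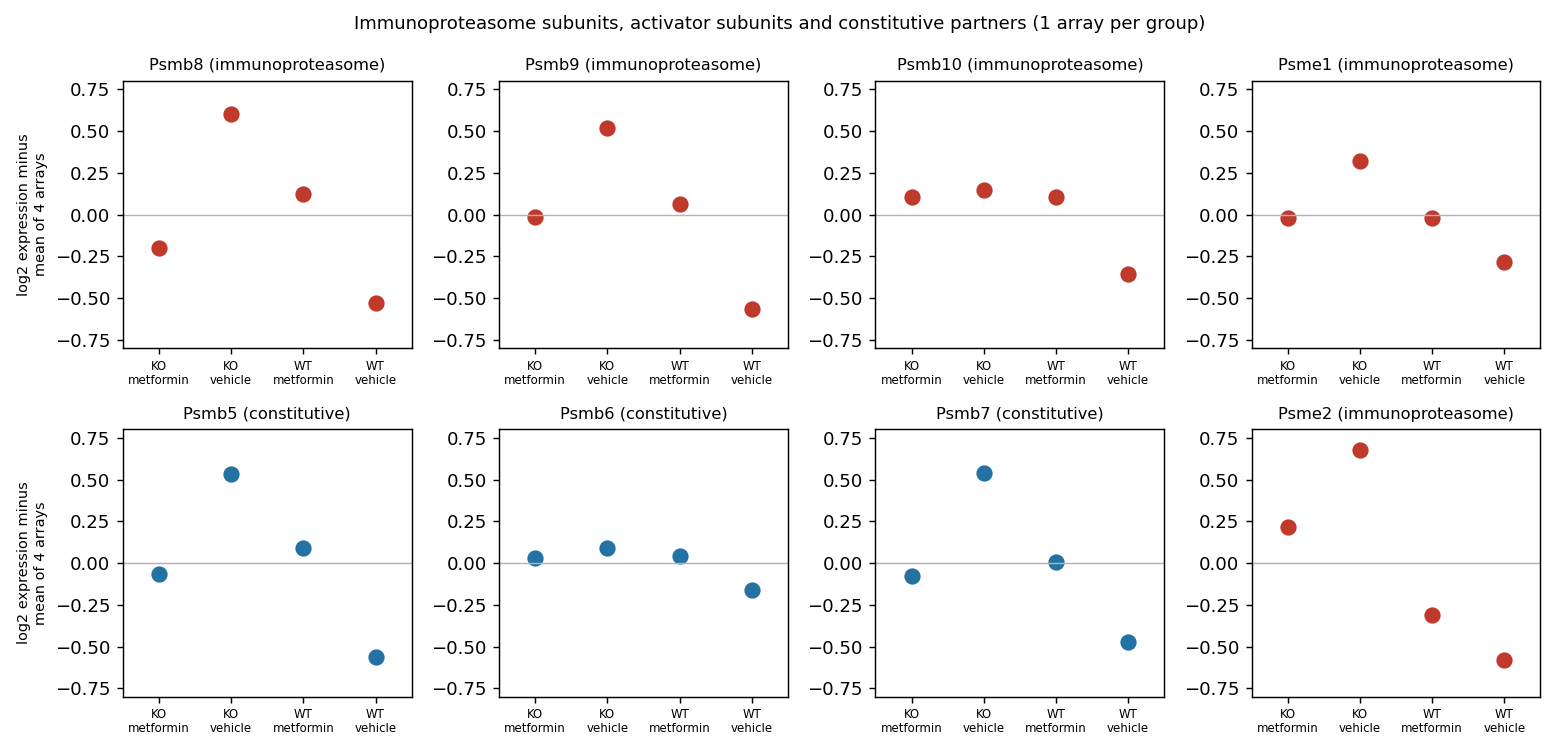
Log2 expression minus the gene's mean over the 4 arrays (y axis) on each array (x axis), for the 5 immunoproteasome genes (red) and the 3 constitutive catalytic subunits (blue), each beneath the subunit that replaces it. Each point is 1 array with no error bar; KO vehicle is the highest and WT vehicle the lowest point in all 8 panels, and Psmb6 spans the least.

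The constitutive partners were set beside the inducible subunits that replace them. Psmb5 had log2 expression 7.66 in KO metformin, 8.26 in KO vehicle, 7.82 in WT metformin and 7.17 in WT vehicle. Its genotype difference under vehicle was 1.10, so Psmb8 exceeded its partner by only 0.03. Psmb6 had 7.88 in KO metformin, 7.94 in KO vehicle, 7.89 in WT metformin and 7.69 in WT vehicle. Its arrays lay within a narrow range, the genotype difference under vehicle was 0.25, and Psmb9 exceeded it by 0.84. Psmb7 had 8.55 in KO metformin, 9.17 in KO vehicle, 8.64 in WT metformin and 8.16 in WT vehicle. Here the constitutive subunit had the larger difference, 1.01, and Psmb10 minus Psmb7 was -0.51. The 3 pairs thus differed in the sign or size of the gap between inducible and constitutive subunit.

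Across all members under vehicle, 7 were at least 2-fold higher in KO (background 2.31% of genes) and 1 was at least 2-fold lower (background 8.12%). Higher were Psmb8, Psmb9 and Psme2, the core subunits Psma7, Psmb5 and Psmb7, and the chaperone Psmg3, and lower was the chaperone Psmd5. The background ran the other way: of the 1156 genes past the 2-fold rule, 77.9% were lower in KO vehicle. That split depends on scaling, with 60.4% lower after cyclic loess and 89.5% lower after each array was centred on its median, and the median of all genes was -0.07 and -0.37 in those settings. Relative to the median of all genes, the immunoproteasome median stood 1.31 higher as deposited and 1.09 higher after cyclic loess. With the trend on gene span, described below, removed it stood 1.05 higher. Centring shifts every gene on an array alike, so it cannot change this gap. After centring only Psme2 and Psmg3 were past 2-fold higher, and Psmd11 joined Psmd5 past 2-fold lower.

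Core subunits were mixed. In the alpha rings Psma7, the alpha subunit with the largest difference, had 8.30 in KO metformin, 8.99 in KO vehicle, 8.73 in WT metformin and 7.95 in WT vehicle, a difference of 1.03 under vehicle. The other alpha subunits past the filter (Psma1, Psma2, Psma3 and Psma6) had genotype differences between -0.05 and 0.21, some of which changed sign with the scaling. All 7 constitutive beta subunits had differences above the median of all genes, with a range of 0.01 for Psmb1 (-0.14 after centring) to 1.10 for Psmb5. Psmb3, a non-catalytic beta subunit, had 5.12 in KO metformin, 5.79 in KO vehicle, 5.38 in WT metformin and 4.83 in WT vehicle, a difference of 0.96, and Psmb4 had a difference of 0.52. Over the 13 core genes the median difference was 0.22, against 1.09 for the immunoproteasome.

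Within the regulatory particle, the ATPase ring and the other subunits are given apart. The 6 ATPases, Psmc1 to Psmc6, all lay above the median of all genes under vehicle, between -0.15 for Psmc4 (0.11 after cyclic loess) and 0.55 for Psmc5. The 11 non-ATPases split, with 6 above that median and 5 below. Psmd4, a ubiquitin receptor, had log2 expression 7.19 in KO metformin, 7.68 in KO vehicle, 7.26 in WT metformin and 6.74 in WT vehicle, a difference of 0.94. Psmd11, a lid subunit, had 8.07 in KO metformin, 7.49 in KO vehicle, 8.05 in WT metformin and 8.40 in WT vehicle, a difference of -0.91. Psmd4 was thus highest and Psmd11 lowest on the KO vehicle array. The large scaffold subunits Psmd2 and Psmd1 were also lower in KO vehicle, with differences of -0.71 and -0.49, while Psmd3 was higher by 0.63 and Psmd14, the deubiquitinase of the lid, by 0.56. The median over the 17 regulatory genes was 0.10, and it was 0.34 after cyclic loess and -0.05 after centring, so its sign is not settled. Relative to the median of all genes it was 0.31 higher as deposited and 0.42 higher after cyclic loess.

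Assembly chaperones held both extremes outside the immunoproteasome. Psmg3, which helps build the alpha ring, had 5.63 in KO metformin, 6.11 in KO vehicle, 5.76 in WT metformin and 4.96 in WT vehicle, a difference of 1.16 under vehicle with a WT vehicle value under the filter value. Psmd5, which holds ATPases during assembly of the base, had 7.93 in KO metformin, 7.37 in KO vehicle, 7.92 in WT metformin and 8.64 in WT vehicle, a difference of -1.26. It was the one member at least 2-fold lower. Psmd10, the oncoprotein gankyrin, had a difference of 0.69, and the remaining chaperones past the filter lay between -0.42 (Psmg2) and 0.37 (Psmd9). The alternative caps Psme3 and Psme4, and the regulator Psmf1, were lower in KO vehicle, with differences of -0.41, -0.60 and -0.49.

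**Figure D2:**
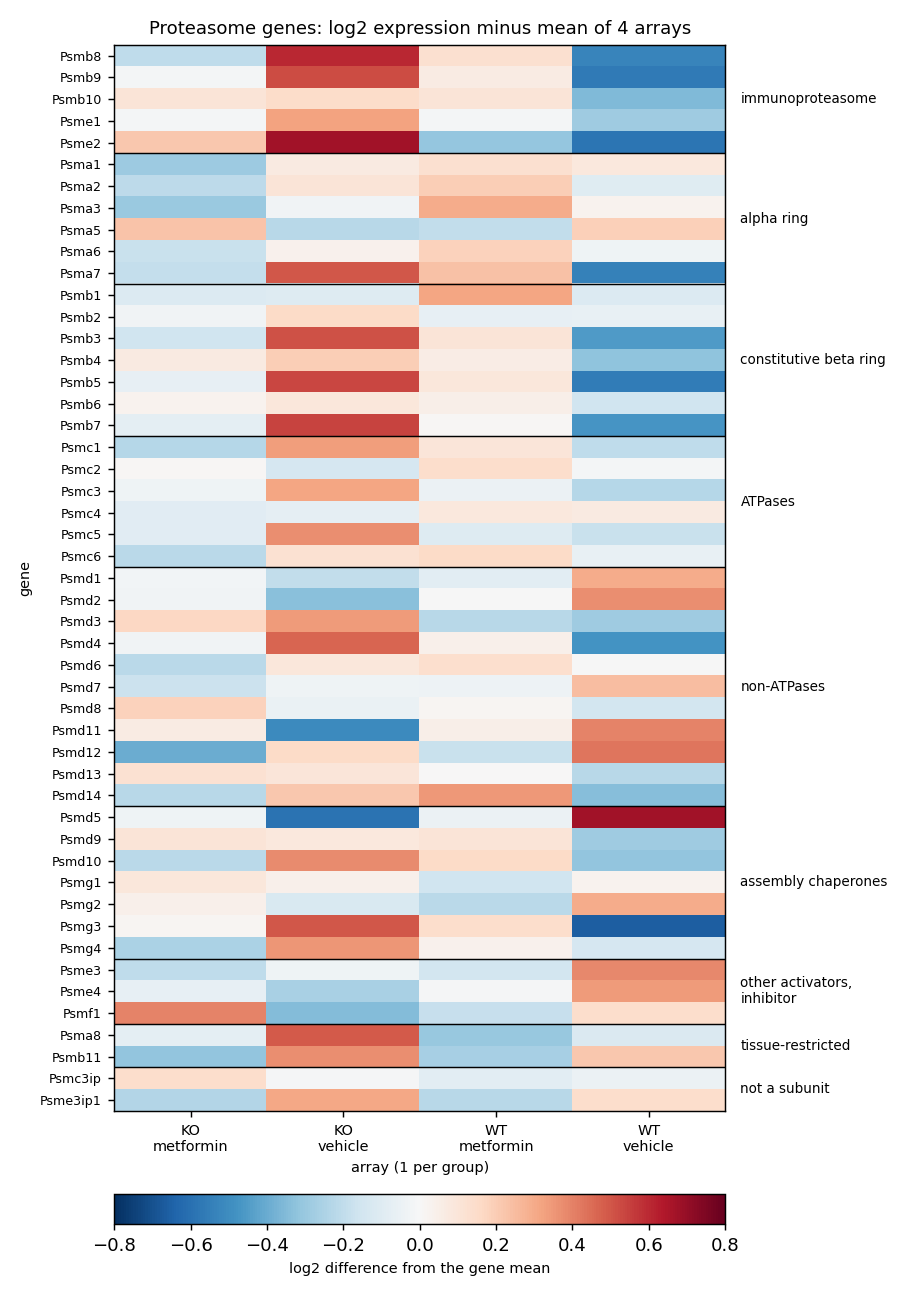
Log2 expression minus the gene's mean over 4 arrays (colour, red higher and blue lower) for the 49 genes (rows, grouped by role) on the 4 arrays (columns, 1 per group). The KO vehicle column is red and the WT vehicle column blue through the immunoproteasome and much of the beta ring, with the opposite colours for Psmd1, Psmd2, Psmd11, Psmd5 and Psme4.

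For many members the metformin differences had opposite signs in the genotypes. In KO mice, metformin minus vehicle was negative for all 5 immunoproteasome genes: -0.80 for Psmb8, -0.54 for Psmb9, -0.05 for Psmb10, -0.34 for Psme1 and -0.46 for Psme2, with Psmb10 at 0.04 after centring. In WT mice it was positive for all 5: 0.65, 0.63, 0.46, 0.27 and 0.27 in the same gene order. That combination was seen in 11 of 13 core genes and 9 of 17 regulatory genes, against 19.4% of all genes past the filter, where the reverse was commoner (46.6%). After centring it was seen in 8 core and 7 regulatory genes, and after cyclic loess in 12 and 11. The medians in KO were -0.46 for the immunoproteasome, -0.27 for the core and -0.18 for the regulatory genes, against 0.11 over all genes. In WT they were 0.46, 0.30 and 0.14, against -0.14 over all genes. Each sign of the median of all genes is thus opposite to that of the members.

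In KO mice no member reached 2-fold with metformin (background 3.06% of genes either way). At 1.5-fold, 6 of the 45 members past the filter were lower (background 3.72%) and 1 was higher (background 12.4%). The lower ones were Psma7, Psmb3, Psmb5, Psmb7, Psmb8 and Psmd10. Psmb11 and Psmg4 were lower by that size too but lie under the filter value, so they are not counted. After Psmb8, the lowest of those past the filter were Psma7 at -0.69 and Psmb3 at -0.67. Psmf1, the higher one, had 7.79 in KO metformin and 7.05 in KO vehicle, a difference of 0.74, with 7.21 in WT metformin and 7.53 in WT vehicle.

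In WT mice likewise no member reached 2-fold (background 1.7%). At 1.5-fold, 6 were higher with metformin (background 3.57%) and 2 were lower (background 9.06%). Psmg3 was higher by 0.80, Psma7 by 0.78, Psmd14 by 0.69, and Psmb5, Psmb8 and Psmb9 by 0.63 to 0.65. Lower were Psmd5, at -0.72, and the lid subunit Psmd12, at -0.60. Psmd12 was also lower with metformin in KO, at -0.55, with 7.90 in KO metformin, 8.45 in KO vehicle, 8.12 in WT metformin and 8.72 in WT vehicle.

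The KO response minus the WT response was at least 2-fold lower for 10 members (background 3.61%) and at least 2-fold higher for Psmd5 and Psmf1 (background 11.2%). Psma7 had the lowest value, -1.46, followed by Psmb8 at -1.45 and Psmg3 at -1.28. The median was -0.73 for the immunoproteasome, -0.50 for the core and -0.20 for the regulatory genes, against 0.26 over all genes. These values combine the same 4 arrays as the comparisons above and add no independent reading.

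Under metformin the genotypes lay close together over all genes, with a correlation of 0.971 between these 2 arrays, the highest of any pair. No member reached a 2-fold difference between KO and WT metformin (background 0.92%), which is near the share of all genes and is not read as a trait of the members. The immunoproteasome median was within rounding of 0, and its members ran between -0.33 for Psmb8 and 0.53 for Psme2. The core median was -0.26, with Psma3, an alpha subunit, lowest of all members: 9.28 in KO metformin, 9.54 in KO vehicle, 9.87 in WT metformin and 9.60 in WT vehicle, a difference of -0.59 under metformin. Psmd14 was next at -0.57, and Psmf1 was the highest at 0.58. A higher value in KO was thus seen between the vehicle arrays for all 5 immunoproteasome genes and between the metformin arrays for Psme2.

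**Figure D3:**
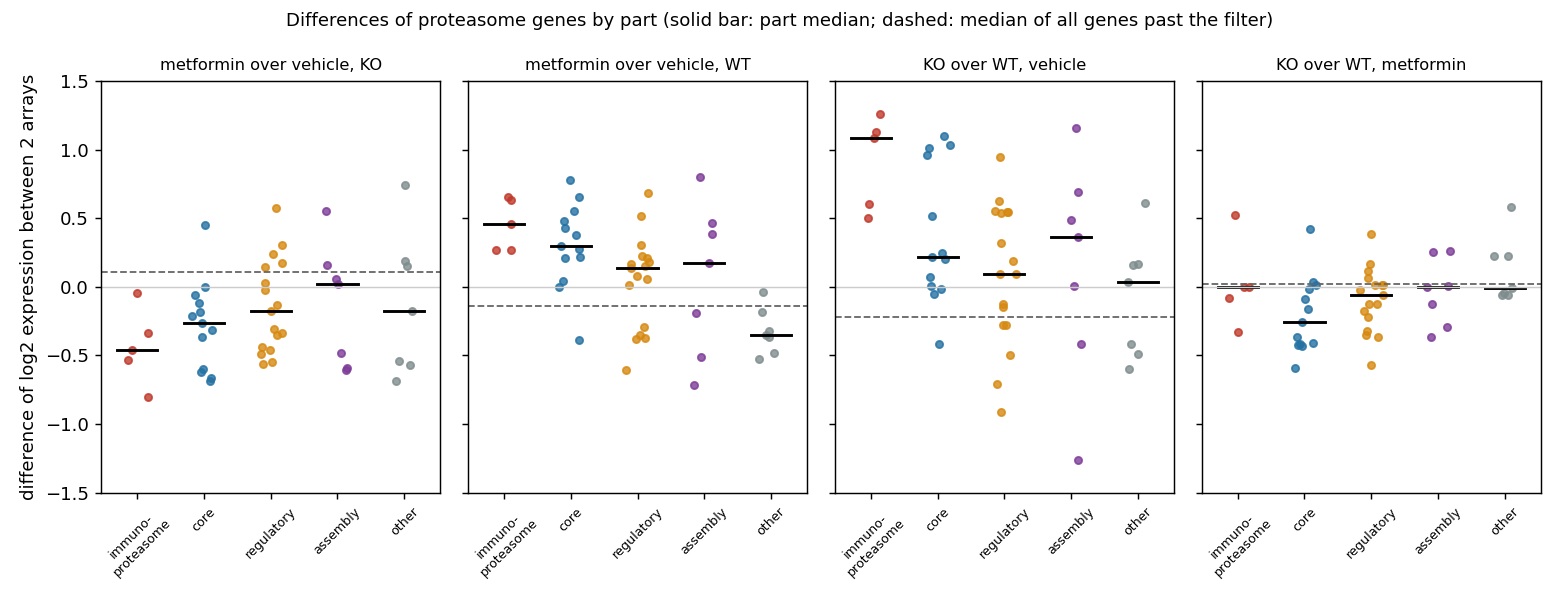
Differences of log2 expression between 2 arrays (y axis) for the 49 genes by role (x axis), in 4 comparisons; points are genes, solid bars role medians, the dashed line the median of all genes past the filter. The immunoproteasome median is 1.09 for KO over WT under vehicle, and the role medians of metformin over vehicle lie below the dashed line in KO and, except for the group of other genes, above it in WT.

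A fit that uses all 4 arrays at once gives a test. limma with genotype and treatment as additive terms, which has 1 residual degree of freedom, called none of the 45 members past the filter for genotype at an adjusted p of 0.05 (background 0.0451%, 5 of 11090 genes). An unadjusted limma p under that level was found for 1 of the 45 members, Psme2, and for 374 of the 11090 genes. For Psme2 the fitted KO minus WT difference was 0.89 ± 0.32 (SE, log2), the unadjusted p from limma was 0.0216 and the Benjamini-Hochberg adjusted p from limma 0.999. For metformin limma called no gene (background 0.0%), with 32 genes and no member under an unadjusted 0.05. An additive fit takes opposite responses in the genotypes as error, so these counts say little about members that differ in that way.

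Genes of antigen presentation that work beside the immunoproteasome had a smaller median genotype difference under vehicle. Tap1 and Tap2, the peptide transporter that carries proteasome products into the endoplasmic reticulum, are neighbours of Psmb8 and Psmb9 on GRCm38.p6, in the order Psmb9, Tap1, Psmb8, Tap2. Tap1 had 6.62 in KO metformin, 6.71 in KO vehicle, 6.69 in WT metformin and 6.54 in WT vehicle, and Tap2 had 5.22 in KO vehicle and 5.07 in WT vehicle. Their genotype differences under vehicle were 0.17 and 0.15, against 1.13 for Psmb8 and 1.09 for Psmb9. Under metformin the genotype differences were -0.08 for Tap1 and -0.73 for Tap2, and the metformin responses in WT were 0.16 and 0.67. Over 9 measured genes of class I peptide supply, 7 lay above the median of all genes under vehicle, with a median of 0.15, from -0.62 for the chaperone Calr to 0.25 for Nlrc5, which is under the filter value.

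Inducers and responders of interferon signalling were read next. Of 13 measured genes, 10 passed the filter. Among the 13, 10 lay above the median of all genes past the filter under vehicle, with a median of 0.14 (-0.01 after centring). Irf7, an interferon-regulatory factor, was the highest at 0.95, with 6.64 in KO metformin, 7.06 in KO vehicle, 6.69 in WT metformin and 6.11 in WT vehicle, the array order of the immunoproteasome genes. The receptor subunit Ifngr1 was the lowest at -0.63. Irf1 had a difference of 0.25, Cxcl9 0.02, and Ifng itself, between 3.58 and 4.16, was under the filter value on every array.

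Genes linked to the proteasome under other symbols were mostly lower in KO vehicle, in 10 of 12 measured, but so were 7421 of the 11090 genes past the filter. Of the 12, 8 lay below the median of all genes under vehicle. The list median was -0.41 against -0.22 over all genes, and after cyclic loess -0.18 against -0.07. Sem1, the small lid subunit, was the highest, with 9.55 in KO metformin, 10.21 in KO vehicle, 9.73 in WT metformin and 9.17 in WT vehicle, a difference of 1.03. The assembly factor Pomp was also higher, at 0.13, and Akirin2, which guides proteasomes into the nucleus, was lowest at -0.75. Factors that control proteasome genes had a median of -0.44 over 6 genes, of which 4 lay below the median of all genes. They ran from -1.10 for the NF-Y subunit Nfyc to -0.14 for Nfe2l1, the factor that restores proteasome genes when proteasome activity is low. Of ubiquitin and unfoldase genes only 4 were measured, 3 of them below the median of all genes, from -1.29 for the ubiquitin-activating enzyme Uba6 to 0.21 for the unfoldase Vcp.

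Markers of leukocytes, which use the immunoproteasome constitutively, were read beside these values. Of 32 measured markers, 16 were under the filter value on all 4 arrays and 25 lay above the median of all genes under vehicle, with a median difference of 0.25 (0.10 after cyclic loess and after centring). The summed linear intensity of the 32 markers was 1755 in KO metformin, 1969 in KO vehicle, 1924 in WT metformin and 1773 in WT vehicle. By this sum KO vehicle was the highest array and KO metformin the lowest by a small gap to WT vehicle. H2-Ab1, an MHC class II gene beside the Psmb8 cluster, was the brightest of these markers on every array. It had the same highest and lowest arrays, so the order of the sum leans on that gene and is not read as leukocyte content. By the median of the markers the order differed, with log2 values of 4.94 in KO metformin, 4.73 in KO vehicle, 4.53 in WT metformin and 4.33 in WT vehicle. Single markers ranged from -1.47 for Cd4 to 3.07 for Jchain of plasma cells. Jchain had 3.94 in WT vehicle and 3.19 in WT metformin, both under the filter value. It passed the filter only through the KO arrays, so its difference is not an exact fold. H2-Ab1 had 8.54 in KO metformin, 9.33 in KO vehicle, 9.11 in WT metformin and 8.56 in WT vehicle. No marker had a value of 0 on this scale. Over 4 mast cell markers the summed intensity was 1001 in KO metformin, 744.2 in KO vehicle, 424.9 in WT metformin and 697.7 in WT vehicle, but single markers disagreed. The mast cell proteases Mcpt2 and Cpa3 were higher in KO vehicle than in WT vehicle by 3.39 and 0.63, and Tpsb2 had 7.05 in KO vehicle and 5.54 in WT vehicle, while Kit, the stem cell factor receptor, differed by -1.61. Mcpt2 had 3.86 in WT vehicle and 4.98 in WT metformin, both under the filter value. It too passed the filter only through the KO arrays, so its difference is not an exact fold. Endothelial and smooth muscle markers were lower in KO vehicle in 6 of 6 genes, with a median difference of -1.03, and Plvap at -1.64, Des at -1.36 and Acta2 at -1.26 were past 2-fold. Among all genes past the filter, 7421 of 11090 were lower in KO vehicle and 8.12% were at least 2-fold lower. The summed intensity of these 6 markers was 7023 in KO metformin, 4758 in KO vehicle, 9377 in WT metformin and 9804 in WT vehicle. The part of these cells in the proteasome differences was not tested.

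Gene span was set against the differences as well. Across the 49 members the Spearman correlation of gene span (bases on GRCm38.p6) with the genotype difference under vehicle was -0.43, and across 10548 protein-coding genes it was -0.26. Genes on one array share its RNA and are not independent replicates, so both are descriptions. The immunoproteasome genes are short, with a median span of 3260 bases, against 12432 for the core and 13163 for the regulatory genes. Members under 10000 bases had a median difference of 0.55 and longer members 0.04, while protein-coding genes had 0.01 and -0.30 in the same classes, so the members' median was the higher in both. When the trend on span over all protein-coding genes was removed, the immunoproteasome median was 0.82 under vehicle, with Psmb10 at 0.15 and Psme1 at 0.28. Psmb6 changed sign, to -0.12. With that trend removed no immunoproteasome gene was past 2-fold, and only Psmb7 (higher) and Psmd5 (lower) were, 2 members against 8 as deposited. The core median exceeded that of the immunoproteasome for metformin in WT in this setting, 0.28 against 0.20. The part of span in these differences was not tested otherwise.

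**Figure D4:**
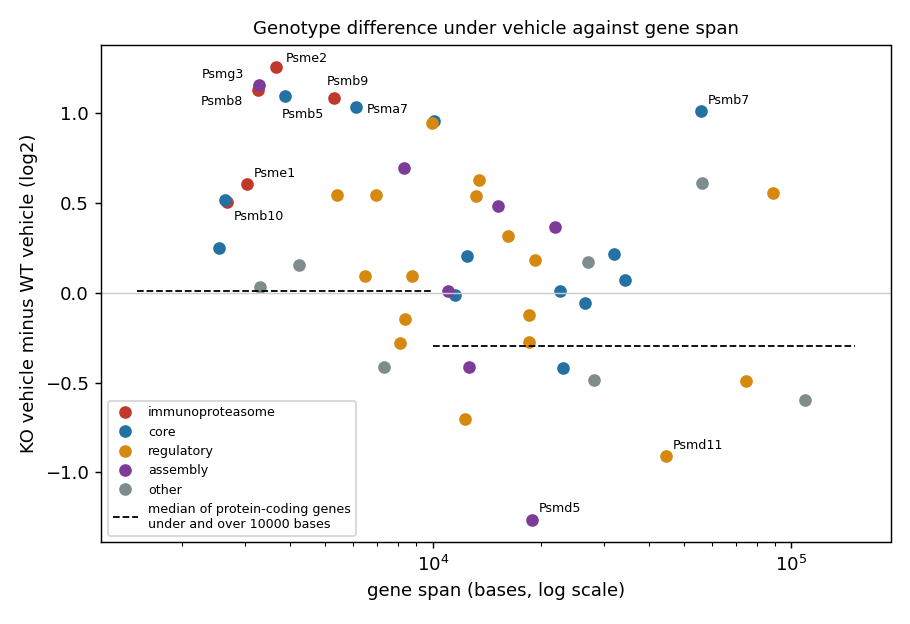
Difference of log2 expression, KO vehicle minus WT vehicle (y axis), against gene span in bases (x axis, log scale) for the 49 genes, coloured by role. Dashed lines are medians of protein-coding genes under and over 10000 bases (0.01 and -0.30); the immunoproteasome genes all lie at short spans and above the line, and Psmb7 is a long gene with a difference of 1.01.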

How the data were processed

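Per the labels' protocols, gastric corpus total RNA was made into biotinylated cDNA (WT Plus reagents) and read on 1 array for each of 4 groups. The deposited log2 values came from Partek with robust multi-array averaging (RMA), per the submitters' processing notes; the sources used here give no version, background step or annotation build. Of 41345 probe sets, 23521 name 1 gene, 1814 several and 16010 none here; symbols were updated through the gene identifier in the RefSeq table (23328 matched). The brightest probe set by mean was kept per gene. Samples were grouped by title. Differences of log2 values were taken between arrays, with size rules of 2-fold (log2 1.0) and 1.5-fold and no test. limma 3.58.1 (R 4.3.3) fitted genotype plus treatment on 11090 genes past the filter, with Benjamini-Hochberg adjustment, after a check on simulated data; treating arrays as replicates of a main effect assumes no interaction, and the spread measured may be technical. Named with values were the immunoproteasome genes and their partners, the extremes of each comparison and role, and members past 2-fold. Members, lists and tests were chosen with earlier results of these data known. Alternatives were cyclic loess, centring, the mean of probe sets, other filters, a 1.5-fold rule, other variance models and removal of the trend on gene span (lowess span 0.3), used because protein lengths were not at hand.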

Additional observations from a re-analysis of the deposited data

Results flagged for a closer look

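Of the members whose metformin differences had opposite signs in KO and in WT, 12 had a KO response at least 2-fold apart from the WT response, and the medians of 3 roles had opposite signs as well. The difference was not tested, since each group is 1 array. The KO response minus the WT response was -1.46 for Psma7, -1.45 for Psmb8, -1.28 for Psmg3, -1.26 for Psmb5, -1.22 for Psmb3, -1.17 for Psmb9, -1.13 for Psmd14, -1.10 for Psmb7, -1.06 for Psmd10 and -1.01 for Psmd4. It was 1.27 for Psmd5 and 1.07 for Psmf1. The medians were -0.73 for the immunoproteasome, -0.50 for the core and -0.20 for the regulatory genes. For Psmb9, Psmb3 and Psmg3 the WT vehicle value lies under 5.03, the filter value.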

How the results depend on the processing

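No member past 2-fold changed sign under the alternatives run. The regulatory median under vehicle, 0.10 as deposited, was -0.05 after centring and -0.04 with the trend on gene span removed. The medians and member counts that follow moved by over 0.226, the median residual SD of the additive fit, or by over 1.5 times for counts. Exceptions are the core medians with the trend on gene span removed, which are set beside them. Shares of all genes and limma counts are given whether or not they moved. With the trend on gene span removed, the immunoproteasome median was 0.20 for metformin in WT, 0.82 for KO against WT under vehicle and -0.42 for the difference of responses. The core medians were then 0.28 for metformin in WT and -0.51 for the difference of responses, which turns the order of immunoproteasome and core in both. In that setting, counted after seeing the data, 2 members were past 2-fold under vehicle, against 8 as deposited, and 7 for the difference of responses, against 12. After cyclic loess the genotype medians under vehicle were 0.47 for the core and 0.34 for the regulatory genes, and the regulatory difference of responses was -0.48. After centring, 4 members were past 2-fold under vehicle. With a 1.5-fold rule the members past it were 9 for metformin in KO, 8 for metformin in WT, 17 for KO against WT under vehicle, 1 for KO against WT under metformin and 21 for the difference of responses. These counts cover all members, including those under the filter value. Scaling also moved the share of lower calls among all genes past 2-fold: for metformin in KO 20.1% as deposited, 32.5% after loess and 10.2% after centring; in WT 54.5%, 40.4% and 69.2%; for the difference of responses 24.4%, 41.9% and 13.2%. limma called 5 genes for genotype as deposited, 40 after centring, 3 without a filter, 8 with a variance trend and 0 with a filter at the 75th percentile, where 148 genes had an unadjusted p under 0.05; no member was called in any of these. For metformin centring gave 3 genes. No paired analysis was possible because the labels carry no replicate numbers and each group is 1 array, and leaving out an array removes a whole group. Array signal limits Psma5, Psma8, Psmb11 and Psmg4, whose means lie under the filter value.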

Other observations

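Some probe sets outside the members read the same genes. The second probe set of Psma5 had log2 values of 3.18 in KO metformin, 3.99 in KO vehicle, 2.93 in WT metformin and 2.21 in WT vehicle, all under the filter value, and its KO minus WT difference under vehicle was 1.78, while the kept probe set gave -0.42. The 2 probe sets thus disagree in sign, and Psma5 has no settled direction here. Psma4, read only with a second gene on its probe sets, had 8.06 in KO metformin, 7.86 in KO vehicle, 8.22 in WT metformin and 8.27 in WT vehicle on the brighter set. For Psmc2 the second probe set differed by 0.03 between KO and WT under vehicle and the kept one by -0.12. The probe set that names Psme2 with 2 other genes differed between KO and WT by 0.09 under vehicle and -0.38 under metformin, while the kept set of Psme2 differed by 1.26 and 0.53. The second probe set of Psmg2, at 2.37 to 2.71, lies far under the filter value.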
